A study of Caenorhabditis elegans with 2 samples.

Results

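The nuclear genome of Caenorhabditis elegans carries 261 genes annotated as microRNA genes, and the 255 of them that lie outside the mir-51 family (all but mir-51 to mir-56) were examined for peaks of the homeodomain factor PHA-2. They were taken by biotype from the annotation, as a group chosen with earlier results of these data known, out of 46890 nuclear genes in all. One group of samples was made: whole late embryos of strain OP687, male and female pooled, 3 h after synchronisation by egg bleaching, in 2 biological replicates. The strain carries the unc-119(tm4063) III mutation and the transgene wgIs687, from which PHA-2 is made as a fusion to GFP and FLAG at its C terminus, and sonicated chromatin was precipitated with an antibody against GFP. Whether these worms keep an untagged PHA-2 is not stated, and the shared control named for both replicates was not analysed here. There was no second stage, genotype or treatment to compare with. The peaks are therefore those of a tagged protein made from a transgene, averaged over all cells of the embryo.

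A microRNA gene is transcribed into a primary transcript that holds 1 or more hairpins. The hairpin is cut out and diced, and 1 arm of it is loaded into an Argonaute protein, where bases 2 to 8, the seed, pair with target messenger RNAs. MicroRNAs with the same seed can act on the same targets, and neighbouring hairpins are often cut from 1 shared transcript. PHA-2 is the Hex-type homeodomain factor that the isthmus of the pharynx needs to form, and several worm microRNAs act in tissues made in the embryo, mir-1 in body wall and pharyngeal muscle among them.

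The values are those of the authors' peak lists on the ce11 assembly. A peak has a signal value given by the authors' peak caller and a summit, its highest point. Each microRNA gene was given the summit of highest signal in a window that starts 1000 bp before its annotated 5′ end and stops 500 bp after it, in the relaxed list of the pooled replicates (30000 peaks), in those of replicate 1 (23371 peaks) and replicate 2 (24336 peaks), and in the optimal list, the 878 peaks that the authors kept by the irreproducible discovery rate (IDR) procedure. The optimal list is the top of the pooled list by signal and ends at a signal of 120 on the pooled scale. Signals of the replicate lists are lower than pooled ones, so a value is compared with others of the same list only, apart from the ratio of the 2 replicates. Positions are on ce11. The 5′ end is that of the annotated gene, which is in nearly all cases the hairpin (median length 95 bases, shortest 52) and not the start of the primary transcript. The let-7 gene is annotated over 1732 bases. Read counts are in none of the lists, and the depth behind a signal is unknown.

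Of the families listed here, the mir-72 and mir-64 families were the ones with more than 1 gene holding an optimal PHA-2 summit. Neighbouring genes shared peaks, so the 3 mir-72 family genes stood at 2 distinct peaks, and mir-229 and mir-64 at 1. The mature arms below are read from the WBcel235 genome (the ce11 assembly) at the positions of the RefSeq annotation, as DNA, 5′ to 3′, with the seed in capitals. They are shown because the results below turn on these families.
mir-72: aGGCAAGAtgttggcatagctga
mir-73: tGGCAAGAtgtaggcagttcagt
mir-74: tGGCAAGAaatggcagtctaca
These arms share the seed GGCAAGA and come from mir-72 on chromosome II and from the pair mir-73 and mir-74 on chromosome X. Of the 6 microRNA genes with this seed on either annotated arm, these 3 held a pooled summit and all of the 3 held an optimal one.
mir-229: aATGACACtggttatcttttccatcg
mir-64: tATGACACtgaagcgttaccgaa
mir-66: cATGACACtgattagggatgtga
mir-63: tATGACACtgaagcgagttggaaa
These share the seed ATGACAC. The first 3 lie in 1 cluster on chromosome III and the last on chromosome X.
mir-58a: tGAGATCGttcagtacggcaat
mir-80: tGAGATCAttagttgaaagccga
mir-81: tGAGATCAtcgtgaaagctagt
mir-82: tGAGATCAtcgtgaaagccagt
The seed of mir-58a, GAGATCG, is close to that of the other arms, GAGATCA. The family is related to the fly microRNA bantam.
mir-35: tCACCGGGtggaaactagcagt
mir-36: tCACCGGGtgaaaattcgcatg
mir-42: tCACCGGGttaacatctacaga
These are 3 of the 8 arms of the mir-35 family, which embryos need to develop and which share the seed CACCGGG.
let-7: tGAGGTAGtaggttgtatagtt
lin-4: tCCCTGAGacctcaagtgtga
Both control the timing of larval development, and neither gene held an optimal summit in its window.

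Of the 255 microRNA genes, 11 (4.31%, 95% Clopper-Pearson interval 2.17 to 7.59) held an optimal summit in the window, against 2.73% of all nuclear genes. Neighbouring genes shared peaks, so the 11 genes stood at 9 distinct peaks, and the interval, which covers counting error only, is too narrow for genes that share a peak. The share of all nuclear genes lies inside this interval, and no test of the list was made. Among other classes, 2.74% of protein-coding genes, 4.8% of genes of the ncRNA class, 27.9% of tRNA genes and 21.7% of snoRNA genes held one. The microRNA genes were thus near the level of protein-coding and ncRNA genes and far below tRNA and snoRNA genes. None of the 11 had its optimal summit within 200 bp of a tRNA, snoRNA or snRNA gene.

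The 11 genes were of middle and low rank in the optimal list, from rank 213 (mir-354) to rank 877 (mir-5549), and 3 of them (mir-354, mir-229 and mir-64) were among its 439 strongest peaks. In each of the 11 genes, the best summits of both replicate lists lay within 150 bp of the pooled one. Peaks of this list were kept for being reproducible, and the same share over all optimal summits is not given. The closeness is therefore not read as a trait of these genes. The authors' −log10 q-value reaches at most 2.07 in the pooled list. It stood at that maximum for 4 of the genes (mir-354, mir-229, mir-64 and mir-1) and between 1.65 and 1.89 for the other 7. Peaks of rank 213 (mir-354), 354 (mir-229 and mir-64, which share a peak) and 507 (mir-1) were thus tied at the maximum. The share of all optimal summits at the maximum is not given, so it is not read as a trait of these 4 genes. The pooled signal of the 11 ran from 120 to 228 with a median of 134, against a median of 167 over the 1280 nuclear genes with an optimal summit, whose highest value was 1237.

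**Figure D1:**
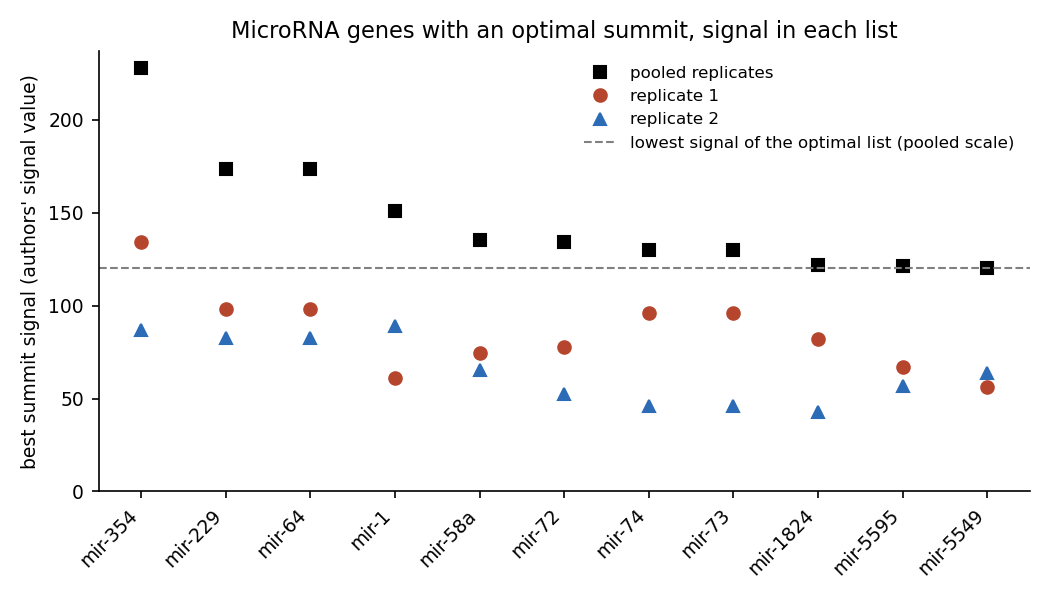
Signal of the best summit (vertical axis, the authors' signal value) at the 11 microRNA genes with an optimal summit, in the pooled list (squares), in replicate 1 (circles) and replicate 2 (triangles). The dashed line is the lowest signal of the optimal list, which holds on the pooled scale only. The 2 replicates stand closest at mir-58a, mir-5549 and mir-5595 and are farthest apart in signal at mir-73, mir-74 and mir-354.

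The genes mir-72, mir-73 and mir-74, listed as the mir-72 family and related to the conserved microRNA miR-31, each held an optimal summit, through 2 peaks, against 2.73% of all nuclear genes. The other 3 genes with the seed GGCAAGA (mir-266, mir-8187 and mir-8188) are not on that list and held no pooled summit, so by seed the count is 3 of 6. At mir-72 (WBGene00003300, chromosome II, 2452838 to 2452936, plus strand, between protein-coding genes) the summit lay 78 bp upstream of the hairpin, in a peak from 2452532 to 2452987. Its signal was 134 in the pooled list, against 77.8 for replicate 1 and 52.3 for replicate 2, and all 3 lists placed the summit on the same base. The closest 5′ end of a gene other than a microRNA, that of pqn-42, was 6221 bp away, so this summit had no other annotated start near it. A stronger optimal peak (signal 229, rank 209) had its summit 2207 bp downstream of the mir-72 5′ end, outside the window, and mir-72 was again the gene with the nearest annotated 5′ end. The 100 bases on each side of the nearer summit, chromosome II, plus strand, are given with the first bases of the mature arm in capitals at their end.
mir-72, chrII:2452660-2452860: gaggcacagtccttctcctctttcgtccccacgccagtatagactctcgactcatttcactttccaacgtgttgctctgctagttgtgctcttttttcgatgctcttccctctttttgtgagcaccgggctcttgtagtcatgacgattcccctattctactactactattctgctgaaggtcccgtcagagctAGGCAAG

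The hairpins of mir-73 (WBGene00003301, chromosome X, 2368765 to 2368863, plus strand) and mir-74 (WBGene00003302, 2369043 to 2369139) lie side by side, outside protein-coding genes, and shared 1 optimal peak at 2368334 to 2368789. The summit lay 203 bp upstream of mir-73 and 481 bp upstream of mir-74. The signal was 130 in the pooled list and, by replicate, 96.1 and 45.9. The replicate 2 value ranked 2524 in its list and the replicate 1 value 365, and with a ratio of 2.09 these were the 2 genes with the largest excess of replicate 1 over replicate 2 among all microRNA genes in both lists. The ncRNA gene T24D8.11 has its 5′ end 151 bp from the summit, nearer than either hairpin. In the 100 bases on each side of the summit, plus strand, capitals mark a GAGAGA element and a run of CA repeats.
mir-73 and mir-74, chrX:2368462-2368662: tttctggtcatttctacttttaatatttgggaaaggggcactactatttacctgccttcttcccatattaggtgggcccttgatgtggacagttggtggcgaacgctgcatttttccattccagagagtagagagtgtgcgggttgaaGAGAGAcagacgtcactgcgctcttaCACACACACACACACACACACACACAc

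In the mir-64 family, 2 of 5 genes held an optimal summit, against 2.73% of all nuclear genes, and all 5 a relaxed pooled one, against 36.3%, at 3 distinct pooled summits. The cluster that holds mir-229, mir-64 and mir-66 lies on the plus strand of chromosome III inside introns of gcn-1, a gene of translational control that runs on the same strand. The optimal peak at 2171714 to 2172169 had its summit 510 bp upstream of mir-229 (WBGene00003322, 2172452 to 2172566) and 906 bp upstream of mir-64 (WBGene00003292, 2172848 to 2172957). Its signal was 173 in the pooled list and, by replicate, 98.3 and 82.7, with ranks of 354, 352 and 404 in these lists. The start of gcn-1 was 19997 bp away and no other annotated 5′ end was closer than that of mir-229. The same summit lay 1166 bp upstream of mir-66, outside its window, and mir-66 had a weaker summit 258 bp upstream, close to the 5′ end of mir-64 (62.4 pooled, 43.8 and 28.7 by replicate, with the replicate summits 689 bp apart). The distant family member mir-63 on chromosome X had a pooled signal of 42.2, a replicate 1 signal of 26.9 and no replicate 2 summit. The 100 bases on each side of the optimal summit hold a long run of CA repeats, in capitals.
mir-229 and mir-64, chrIII:2171842-2172042: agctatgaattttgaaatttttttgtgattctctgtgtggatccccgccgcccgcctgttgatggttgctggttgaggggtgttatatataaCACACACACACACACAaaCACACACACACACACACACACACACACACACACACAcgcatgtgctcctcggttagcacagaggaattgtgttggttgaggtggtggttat

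At mir-58a (WBGene00003286, chromosome IV, 3233254 to 3233350, plus strand) the summit lay on the hairpin itself, 86 bp downstream of its 5′ end. The gene stands in an intron of Y67D8A.2 on the same strand, whose start is 10900 bp away, and the ncRNA gene Y67D8A.6 has its 5′ end 178 bp from the summit. The signal was 136 in the pooled list and, by replicate, 74.4 and 65.5, at ranks of 659, 659 and 758. In the 100 bases on each side of the summit, plus strand, capitals mark both mature arms, and the summit base follows the second of them by 5 bases.
mir-58a, chrIV:3233240-3233440: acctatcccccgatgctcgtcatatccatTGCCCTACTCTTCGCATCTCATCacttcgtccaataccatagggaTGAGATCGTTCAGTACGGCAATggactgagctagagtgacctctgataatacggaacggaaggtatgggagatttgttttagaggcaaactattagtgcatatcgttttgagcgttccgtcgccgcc
Of the 7 annotated genes listed for the mir-58 family, 1 (mir-58a) held an optimal summit, against 2.73% of all nuclear genes, and 4 a pooled one, against 36.3%. The other 3 with a pooled summit were mir-82 (75.1), mir-81 (70.7) and mir-80 (59.9), while mir-2209a, mir-2209b and mir-2209c had none. The list leaves out mir-58b and mir-58c, which carry the seed GAGATCA and shared a pooled summit of 43.0 with a replicate 1 value of 33.8 and none in replicate 2. By that seed, which mir-2209a carries and mir-2209b and mir-2209c do not, 5 of 6 genes held a pooled summit and 0 an optimal one. The replicates did not place these weaker summits alike. The best summits at mir-82 in the 2 replicate lists lay 802 bp apart (35.1 in replicate 1 and 59.5 in replicate 2), mir-81 had none in replicate 2, and mir-80 had 45.2 in replicate 1 and 22.2 in replicate 2.

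Both mir-5595 and mir-5549 stood close to the end of the optimal list. At mir-5595 (WBGene00195007, chromosome II, 14399565 to 14399629, minus strand), in an intron of the chromatin remodelling gene nurf-1 on the opposite strand, the summit lay 162 bp upstream, and the signals were 121 pooled, 66.8 in replicate 1 and 56.8 in replicate 2. The next annotated start of a gene other than a microRNA was 8821 bp away there. At mir-5549 (WBGene00219220, chromosome III, 6971976 to 6972085, minus strand), outside protein-coding genes, the summit lay inside the hairpin, 101 bp downstream of its 5′ end and 269 bp from the start of rfc-4, a replication factor gene, with 120 pooled, 56.1 in replicate 1 and 63.7 in replicate 2. The window of mir-5595 is shown because it is the one of the 9 with the homeodomain core TAATTA, in capitals.
mir-5595, chrII:14399691-14399891: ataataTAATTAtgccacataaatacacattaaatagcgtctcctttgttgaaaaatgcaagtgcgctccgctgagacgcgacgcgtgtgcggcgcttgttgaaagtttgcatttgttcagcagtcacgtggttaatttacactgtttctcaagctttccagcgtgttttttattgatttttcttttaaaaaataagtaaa

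The conserved muscle microRNA gene mir-1 (WBGene00003260, chromosome I, 6172662 to 6172757, minus strand), outside protein-coding genes, had an optimal summit 360 bp upstream of its 5′ end, in a peak from 6172889 to 6173344. Its signal was 151 in the pooled list and, by replicate, 61.2 and 89.3, the highest replicate 2 value of all 255 genes. The replicate summits lay 22 bp apart. The 5′ end of the ncRNA gene T09B4.17 lay 118 bp from the pooled summit, nearer than that of mir-1.

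The strongest summit at any of the 255 genes belonged to the window of mir-354 (WBGene00014612, chromosome I, 14468382 to 14468491, minus strand), with 228 in the pooled list and, by replicate, 134 and 86.8. This hairpin lies inside the ribosomal protein gene rps-20 on the same strand, where it overlaps an annotated exon, and the summit lay 857 bp upstream of it. The summit was 152 bp from the 5′ end of ekl-4 and 245 bp from that of rps-20, so it stood at the starts of protein-coding genes and not at the hairpin. At mir-1824 (WBGene00077718, chromosome I, 13513955 to 13514047, plus strand), in an intron of Y87G2A.18 on the opposite strand, the summit lay 421 bp downstream of the 5′ end, 86 bp from the start of Y87G2A.18, with a pooled signal of 122 and replicate signals of 82.3 and 42.5.

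Short words, a homeodomain and a forkhead core among them, were counted in the windows at the 9 optimal peaks. On both strands of the 100 bases to each side, TAATTA was found in 1 of the 9 windows (11.1%), against 6.07% of the windows at all 856 nuclear optimal summits. GAGAGA was found in 3 (33.3%), against 32.9%. GAGAGA lay near, and outside, the CA run at mir-73 and mir-74. The forkhead-like word TGTTTAC was found in 0 of 9, against 3.5%, and the tRNA B box GTTCNANNC in 0 of 9, against 22.7%. A run of 6 CA units, a word chosen after the sequences had been seen, was found in 2 of the 9 windows (22.2%), against 4.56% of all. Median GC content was 43.8% in the 9 windows and 45.5% in all. With 9 windows, shares of this kind differ by large steps, and no test was made.

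By the nearest annotated 5′ end, 5 of the 11 genes were themselves the gene closest to their optimal summit, namely mir-72, mir-229, mir-58a, mir-5595 and mir-5549. For mir-64, which shares its peak with mir-229, the closest was mir-229, for mir-1, mir-73 and mir-74 an ncRNA gene, and for mir-354 and mir-1824 a protein-coding gene. The share of all nuclear genes closest to their own optimal summit is not given. Outside the window, 2 further microRNA genes had the annotated 5′ end closest to an optimal summit. These were mir-2215, with a summit 1725 bp upstream (signal 171), and mir-62, with a summit 803 bp downstream (signal 144). The microRNA of mir-62 is made from a whole short intron of ugt-50, a mirtron.

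Below the optimal list, the next gene was mir-87 (chromosome V), inside kup-1, with 116 in the pooled list and, by replicate, 64.5 and 41.5. Its summit lay 244 bp downstream of its 5′ end, and 116 bp from the 5′ end of the ncRNA gene F10C2.11. The next was mir-236 (chromosome II, 113 pooled, 67.8 and 47.8 in replicates 1 and 2), whose summit lay 63 bp upstream. The 5′ end of the ncRNA gene C52E12.9 was nearer to that summit, at 31 bp. The third was mir-55b (chromosome X, 112 pooled, 59.3 and 87.8), a hairpin annotated on the opposite strand of mir-55, so its summit is also the one of mir-54, mir-55 and mir-56. Its best summits in the replicate lists lay 547 bp apart. The fourth, mir-79 (chromosome I), a relative of the conserved microRNA miR-9, had its summit 20 bp upstream, with 107 pooled, 45.1 in replicate 1 and 62.2 in replicate 2. The fifth place was shared by mir-42, mir-43 and mir-44 on chromosome II, hairpins in a row behind 1 summit 150 bp upstream of mir-42, with 105 pooled, 67.5 in replicate 1 and 41.8 in replicate 2. In all, 23 genes stood between the end of the optimal list and rank 3000.

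All 8 genes of the mir-35 family had a summit in each of the 3 relaxed lists, against 17.8% of all nuclear genes, but they had 2 distinct pooled summits. The hairpins of mir-35 to mir-41 on chromosome II, which lie on the opposite strand of Y62F5A.9, had 1 summit 259 bp upstream of mir-35 and 959 bp upstream of mir-41. It had 82.8 in the pooled list at rank 2592, and the best replicate 1 summit, with 40.7, lay 4 bp from it. The best replicate 2 summit in these windows, with 57.8, lay 480 bp from the pooled one. Its peak (11537601 to 11538056) does not overlap the pooled peak (11537121 to 11537576). The best summits of the replicates in the mir-35 window thus lay 476 bp apart, in different peaks. The ncRNA gene Y62F5A.16 has its 5′ end 178 bp from the pooled summit. The last member, mir-42, had the summit given above.

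The lin-4 and let-7 families are regulators of developmental timing. Of their 9 genes, 0 held an optimal summit, against 2.73% of all nuclear genes, which, with 3 counts as the limit of a count of 0, leaves room for a share as high as 33.3%. A pooled summit was held by 2 of the 9, against 36.3% of all nuclear genes. These were mir-241 (40.7 pooled, none in replicate 1, 35.9 in replicate 2) and lin-4 (37.7 pooled, none in replicate 1, 33.4 in replicate 2), at pooled ranks of 20732 and 24257. Both pooled summits lay nearer to the 5′ end of an ncRNA gene (F56A12.8, 246 bp, and F59G1.12, 191 bp). The let-7 window held only a replicate 2 summit of 23.8. An optimal summit (signal 128, rank 776) lay 1802 bp upstream of the let-7 5′ end, beyond the window, and 180 bp from the 5′ end of C05G5.2.

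Over all nuclear genes, 36.3% held a pooled summit, and the next counts, from lists of 4 to 8 genes, are given beside that share with nothing read from them. In the mir-2 family, 2 of 4 genes had a pooled summit, mir-43, given above, and mir-2 (chromosome I, in ppfr-1). At mir-2 the signal was 102 pooled, 30.5 in replicate 1 and 68.8 in replicate 2. In the mir-44 family 1 of 4 genes had one, mir-44. Of the 4 genes listed as mirtrons, mir-62 had one of 101 pooled, 62.1 in replicate 1 and 40.2 in replicate 2, at 427 bp upstream, and mir-1018, mir-1019 and mir-1020 had none. In the annotation used, mir-1018 lies outside protein-coding genes. Of 8 microRNAs known from neurons, glia, muscle or stress responses, 4 had a pooled summit. After mir-1 these were mir-228, a microRNA of glia (99.8 pooled, 39.7 and 44.2 in replicates 1 and 2, with the replicate summits 1 bp apart), mir-83 (43.2 pooled, with replicate summits 1287 bp apart) and mir-71, known from lifespan (35.2 pooled, in neither replicate list). At mir-228 and mir-71 the pooled summit lay nearer to the 5′ end of an ncRNA gene (T12E12.44, 39 bp, and F16A11.8, 34 bp). The sensory neuron genes lsy-6 and mir-124, and mir-34 and mir-235, had no pooled summit. At lsy-6, which sets the left-right difference of a pair of taste neurons, a replicate 1 summit of 22.1 was the one value in any list.

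**Figure D2:**
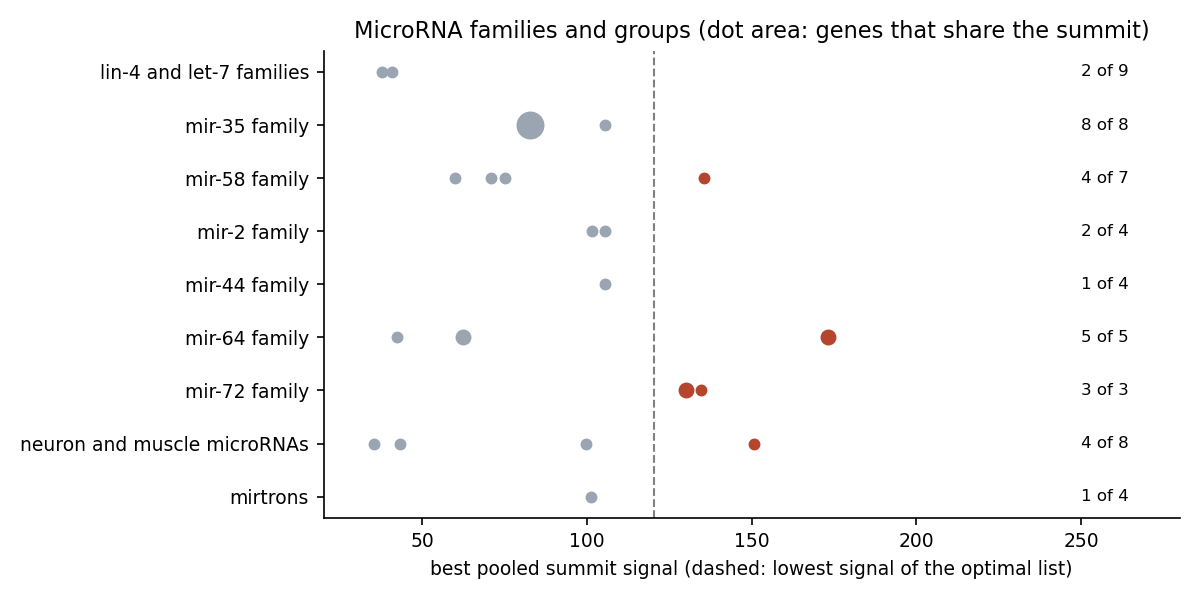
Best pooled summit signal (horizontal axis) of the microRNA genes of each family or group, with dot area proportional to the number of genes that share the summit and with the count of genes with a pooled summit at the right. Red dots lie at or above the lowest signal of the optimal list (dashed line). The 3 listed genes of the mir-72 family stand above it and the 8 of the mir-35 family below it, and genes that share a seed but are not listed are not drawn.

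At the relaxed threshold, 105 of the 255 microRNA genes (41.2%) held a pooled summit, against 36.3% of all nuclear genes and 39.6% of protein-coding genes. In replicate 1 the count was 87 (34.1%, against 30.9% of all nuclear genes) and in replicate 2 it was 96 (37.6%, against 30.8%). All 3 lists held a summit at 64 microRNA genes (25.1%), against 17.8% of all nuclear genes and 20.5% of protein-coding genes. The median best pooled signal of the 105 genes was 63.6, against 50.7 over the 17018 nuclear genes with a pooled summit and 52.3 over protein-coding ones. These 105 genes stood at 91 distinct summits, since 22 of them shared theirs with another microRNA gene. The summits lay upstream of the 5′ end in 75 of 105 cases (71.4%), against 66.9% of all nuclear genes, and within 250 bp of it in 41.9%, against 41.2%. The window itself extends farther upstream than downstream. In 63 of the 105 genes (60%) the gene's own 5′ end was the annotated one nearest to the summit. The same share over all nuclear genes is not given, so nothing is read from this one. For 1 gene, mir-8207, a tRNA gene lay within 200 bp of the summit. The remaining 150 genes had no pooled summit in the window.

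**Figure D3:**
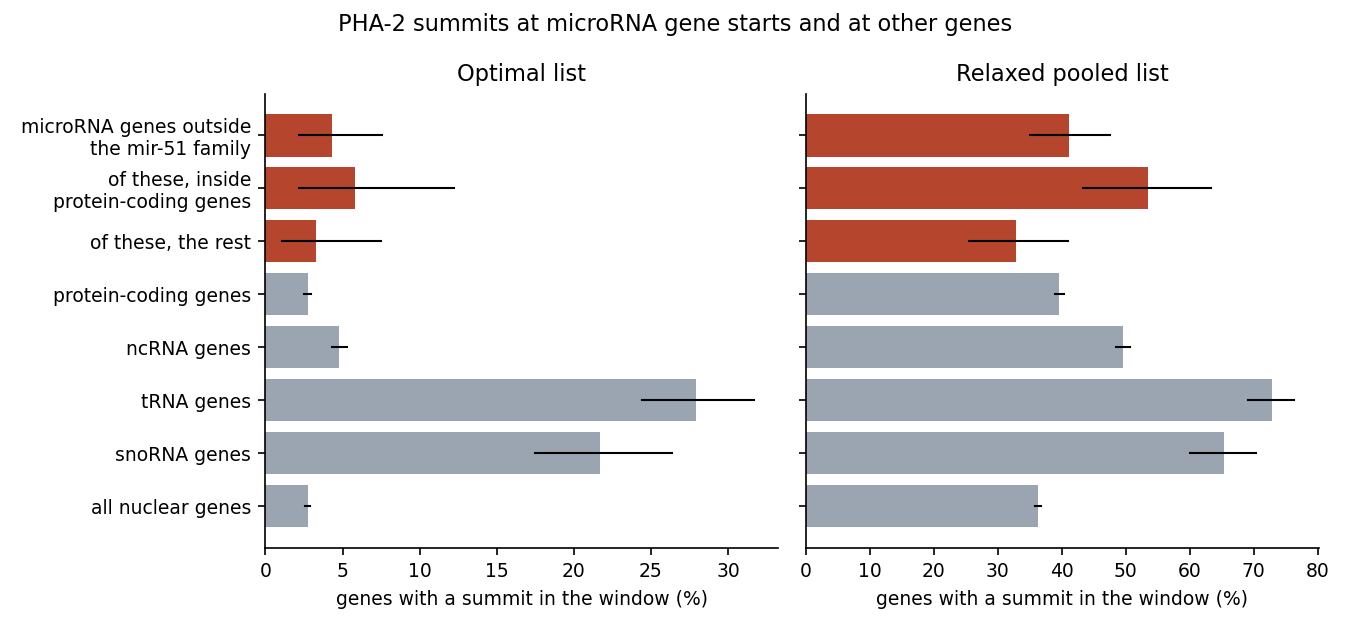
Share of genes with a summit from 1000 bp upstream to 500 bp downstream of the 5′ end (horizontal axes, %), in the optimal list (left) and the relaxed pooled list (right), for the 255 microRNA genes and their 2 position classes (red) and other nuclear genes (grey). Lines are 95% Clopper-Pearson intervals and cover counting error only. MicroRNA genes stand at 4.31% and 41.2%, close to protein-coding genes and below tRNA and snoRNA genes in both lists.

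MicroRNA genes inside protein-coding genes held a relaxed summit more often than the rest, 55 of 103 (53.4%, 43.3 to 63.3) against 50 of 152 (32.9%, 25.5 to 41.0), with no test of this difference. Over all nuclear genes the share was 36.3%, inside the interval of the rest. For the optimal list the counts were 6 of 103 (5.83%) inside and 5 of 152 (3.29%) for the rest, against 2.73% of all nuclear genes. Among the 6 inside, mir-229 and mir-64 shared 1 peak, and the summits at mir-354 and mir-1824 stood nearest to protein-coding starts. Between the 2 classes the direction turned in the window of 500 bp upstream to the 5′ end, with 1 of 103 inside and 4 of 152 for the rest. In the 878 strongest peaks of replicate 2 alone the counts were 6 inside and 2 for the rest, and in those of replicate 1 alone 6 inside and 7 for the rest. The share inside was 54.1% for the 74 genes on the strand of their host and 51.7% for the 29 on the other strand. The 40 same-strand genes with a summit stood at 38 distinct summits. The 15 on the other strand stood at 9, as mir-35 to mir-41 share 1, so nothing is read from the likeness of the 2 shares. In all, 94 of the 103 lay in introns. The 55 genes inside and the 50 of the rest stood at 47 and 44 distinct summits. Median pooled signal was 63.9 inside and 61.1 for the rest. Of the 55 summits, 6 lay nearer to the 5′ end of the host gene than to that of the microRNA, and 11 within 500 bp of the host's start. The window limits both counts, because it follows the microRNA and some host genes start far outside it. The start of gcn-1, for example, is 19997 bp from the summit at mir-229. The chromosomes differed in the share of both classes. On chromosome I the shares were 57.9% inside and 64.3% for the rest, on chromosome III the shares were 60% inside and 58.3% for the rest, and on chromosomes II, IV, V and X the share inside was higher, by the most on chromosome V (50% inside against 11.1% for the rest, from 10 and 18 genes). The rest lie on chromosome X in 56 of 152 cases, where 30.4% had a summit.

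By chromosome, the share of microRNA genes with a pooled summit was 60.6% on I, 53.1% on II, 59.3% on III, 27.7% on IV, 25% on V and 32.4% on X. Protein-coding genes had 50.2%, 38.7%, 50.8%, 37.3%, 31.6% and 36.1% on the same chromosomes, so that chromosomes I and III were high and V was low in both classes. The share of microRNA genes on II is raised by clusters, since its 26 genes with a pooled summit stood at 17 distinct summits. On I, 20 genes stood at 20 summits. Optimal summits stood at 3 of 33 microRNA genes on I, 2 of 49 on II, 3 of 27 on III, 1 of 47 on IV, 0 of 28 on V and 2 of 71 on X. Protein-coding genes had 4.13%, 2.58%, 4.05%, 2.35%, 1.8% and 2.42% on the same chromosomes. The 2 genes on X (mir-73 and mir-74) shared 1 peak, as did mir-229 and mir-64 on III. Nothing is read from counts this small.

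**Figure D4:**
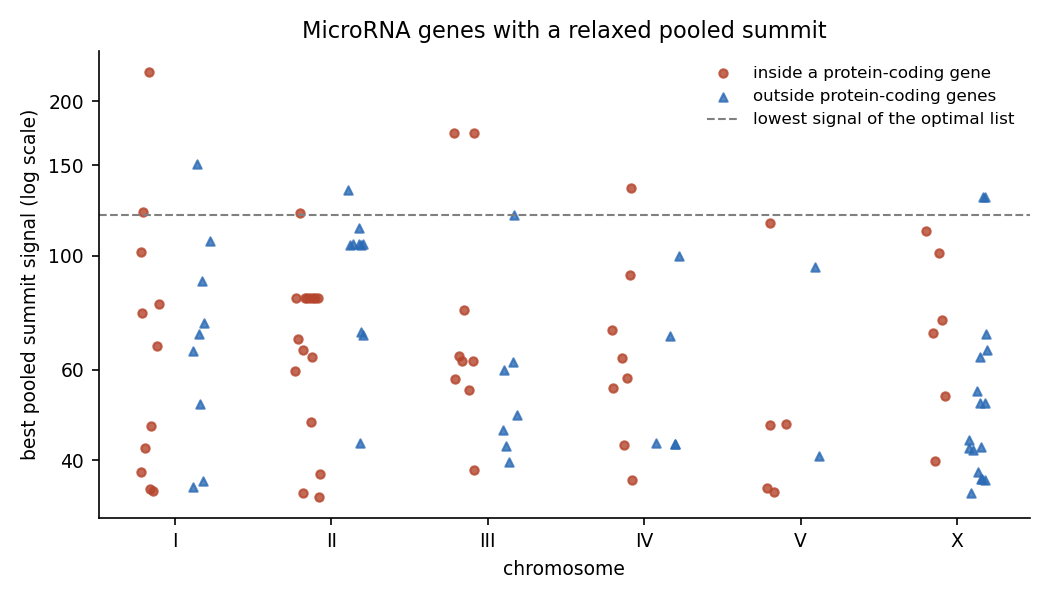
Best pooled summit signal (vertical axis, log scale) of the 105 microRNA genes with a pooled summit, by chromosome, for genes inside (red circles) and outside (blue triangles) protein-coding genes. The dashed line is the lowest signal of the optimal list. Chromosome V has no gene above the line, and the row of circles at 82.8 on chromosome II is the summit shared by mir-35 to mir-41.

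The microRNA genes were also divided by the number in their names, which follows the order of description. This grouping was made after the values had been seen. Among the 113 genes that are lin-4, let-7, lsy-6 or have a number below 400, 8 (7.08%) held an optimal summit and 60 (53.1%) a pooled one. Among the 141 genes numbered above 700, 3 (2.13%; mir-1824, mir-5595 and mir-5549) held an optimal summit and 45 (31.9%) a pooled one. Over all nuclear genes the shares were 2.73% and 36.3%, so the higher numbers lie near or below them. Several of the clusters that share a summit belong to the first group, whose 60 genes stood at 48 summits, against 44 summits for the 45 genes of the second.

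Both replicate lists held a summit in the window of 66 microRNA genes, while 21 had one in replicate 1 only, 30 in replicate 2 only and 138 in neither. Across the 66 genes, the rank correlation of the signals (Spearman's rho) was 0.48, and Pearson's r of log10 signals was 0.52. The rank correlation depended on the window, at 0.0802 over 35 genes from 500 bp upstream to the 5′ end and 0.607 over 97 genes from 2000 bp upstream to 500 bp downstream. Across the 8687 nuclear genes present in both lists, the values in the main window were 0.57 and 0.76. These are descriptions across genes, which share 2 libraries and in clusters also peaks, and no p is given. The replicate summits were within 150 bp of each other in 36 of the 66 genes (54.5%). The same share over all nuclear genes is not given, so this one is not read as a trait of microRNA genes. The median ratio of replicate 1 to replicate 2 was 1.04, and it was also 1.04 over all nuclear genes. The largest ratios were 2.09 at mir-73 and mir-74 and 2.04 at mir-80. The smallest were 0.443 at mir-2, 0.569 at mir-260 (22.5 in replicate 1 and 39.5 in replicate 2) and 0.59 at mir-82.

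**Figure D5:**
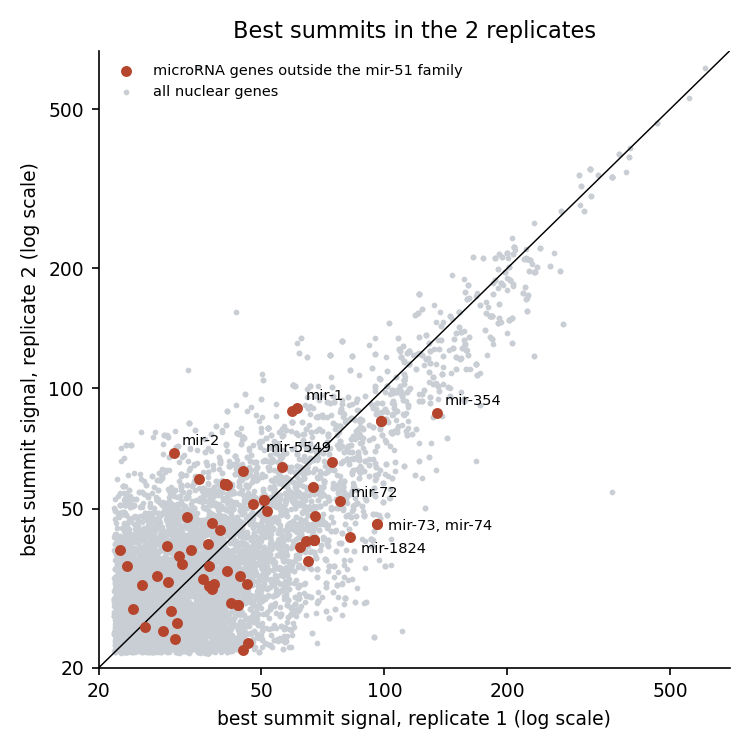
Signal of the best summit in replicate 1 (horizontal axis) and replicate 2 (vertical axis), both on log scales, for the 66 microRNA genes (red) and the 8687 nuclear genes (grey) with a summit in both lists. The line marks equal values. The microRNA genes lie in the lower and middle part of the range, with mir-354 farthest to the right at 134 and 86.8.

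The highest signal of the 255 genes, 228 at mir-354, compares with 690 (rank 23) at mir-52 and 640 (rank 27) at mir-51 of the mir-51 family, left out above. The other 4 genes of that family held no optimal summit, with 112 at mir-54, mir-55 and mir-56 and 91.4 at mir-53. A summit in each of the 3 relaxed lists was held by 25.1% of the 255 genes and by all 6 genes of the mir-51 family.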

How the data were processed

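Tagged PHA-2 was mapped by ChIP-seq in 2 biological replicates. Per the labels, the lists are on ce11 and ce10. The authors deposited narrowPeak lists with a signal value, a −log10 q-value and a summit offset per peak. The aligner and the peak caller, not given in the sources used here, cannot be named. The signal's scale is not stated, so values were compared only within a list, apart from the ratio of the 2 replicate lists. The ce10 lists were not used.

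Genes are from Ensembl release 115 (WBcel235, the ce11 assembly), and RefSeq gave names and mature arms by WormBase identifier (255 of 255 matched, 254 with a mature arm). The named genes are those with an optimal summit, the next 5 (with genes that tie), the 3 largest and 3 smallest replicate ratios, and 10 well-known genes. Family lists are textbook lists and differ in part from the groups by seed. The listed genes mir-31 and mir-1834 are not in the annotation. The members and lists were chosen with earlier results of these data known. There is 1 group, so no test was made. The summit search was tested on simulated summits. Alternatives were other windows, the 439 strongest optimal peaks, each replicate's 878 strongest peaks, the nearest 5′ end, and summits away from small RNA genes. Python 3.11.15, pandas 2.3.3, scipy 1.17.1 and Biopython 1.88 were used. One mature sequence is not reported here.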

Additional observations from a re-analysis of the deposited data

How the results depend on the processing

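The count of 11 microRNA genes with an optimal summit depended on the window and the threshold. It was 5 from 500 bp upstream to the 5′ end (mir-1, mir-72, mir-73, mir-74 and mir-5595), 17 from 2000 bp upstream to 500 bp downstream, 3 in the 439 strongest optimal peaks, 7 by the nearest 5′ end (5 of them among the 11), and from 8 (without replicate 1) to 13 (without replicate 2) in the 878 strongest peaks of 1 replicate. Of the 11 genes, 6 were among the 8 of replicate 2 alone and 9 among the 13 of replicate 1 alone. In the long window, mir-65 and mir-66 were added through the peak already held by mir-229 and mir-64. The share of all nuclear genes under each alternative setting is not given, so whether the microRNA genes stay near it there was not tested. For genes inside protein-coding genes the count of 6 became 1 with the short window (4 for the rest, so the order turned) and 3 in the 439 strongest peaks, and was 6 in each replicate alone. For the rest the count of 5 became 8 with the long window, 0 in the 439 strongest peaks, 3 by the nearest 5′ end, and from 2 (without replicate 1) to 7 (without replicate 2). The short window left 61 genes with a pooled summit, 34 with one in all 3 lists, a median signal of 69.0 and a median distance of −238 bp in place of −201 bp. The long window gave a median distance of −662 bp, as its construction allows. In the replicate lists alone, the median signal was 35.9 (without replicate 1) to 38.4 (without replicate 2) on their own scale, and the median distance −209.5 to −203 bp. The replicate correlation was 0.0802 over the 35 genes of the short window and 0.607 over the 97 of the long one. The cause was not tested. Counted once per peak, a setting chosen after seeing the data, the 11 genes were 9. Leaving out summits within 200 bp of tRNA, snoRNA or snRNA genes left 11. No paired analysis was possible because there is 1 group. The depth of the libraries is unknown.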
